A study of Homo sapiens with 6 samples.

Results

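The miR-148 and miR-152 family was followed in A549 cells, a human lung adenocarcinoma line, with METTL1 knocked down. The members were chosen by name. They are hsa-miR-148a-3p, hsa-miR-148b-3p, hsa-miR-152-3p, hsa-miR-148a-5p and hsa-miR-148b-5p, which are 5 of the 2588 mature miRNAs listed in each count table. The first of these is a miRNA that the study uses, among others, as a negative control for N7-methylguanosine (m7G). The question was whether the rest of the family behaves like it. All 6 libraries came from A549 cells carrying a doxycycline-inducible knockdown of METTL1, a methyltransferase that places m7G in RNA, on day 5 of 200 ng/ml doxycycline. In 3 libraries total RNA was sequenced, and in the other 3 the RNA that an anti-m7G antibody had pulled down (m7G-RIP). The knockdown was made by lentiviral shRNA and drug selection, and which shRNA these samples carried is not given in the sources used here. Cells with normal METTL1 and control IgG libraries were not analysed here, so the comparison describes what the antibody recovered from knockdown cells and not the effect of METTL1. No source says whether replicates were separate cultures, so the p-values measure only the spread between these libraries.

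A miRNA hairpin yields a 5p and a 3p arm, and the arm loaded into the silencing complex pairs with mRNAs mainly through its seed, bases 2 to 8. The 3p arms of miR-148a, miR-148b and miR-152 are usually the functional strands and share their seed, so they are predicted to bind largely the same targets. DNMT1, the maintenance DNA methyltransferase, is a well-known target of this family. m7G was first known from the mRNA cap and from internal sites of tRNA and rRNA, and the antibody used here binds the modified base.

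The mature sequences are shown because the 3 functional arms differ at only a few bases while their recovery differed widely. They are RefSeq sequences on GRCh38.p14, 5′ to 3′, with the seed in capitals. Entries matched 4 of the 5 members.
hsa-miR-148a-3p: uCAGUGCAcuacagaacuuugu
hsa-miR-148b-3p: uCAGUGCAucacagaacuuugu
hsa-miR-152-3p: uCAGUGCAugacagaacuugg
hsa-miR-148b-5p: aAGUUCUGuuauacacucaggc

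Among the 2370 mature names of the RefSeq table, these 3 were the only ones with the seed CAGUGCA. Counting positions from 1 at the 5′ end and without gaps, miR-148a-3p differs from miR-148b-3p at 2 positions (C9U and U10C), just 3′ of the seed. miR-148b-3p differs from miR-152-3p at 2 positions (C10G and U20G). miR-148a-3p differs from miR-152-3p at 3 positions (C9U, U10G and U20G). Assignment of reads between these miRNAs was not tested. miR-148a-3p and miR-148b-3p hold 4 G each of 22 bases (18.2%), with no GG. miR-152-3p holds 6 G of 21 bases (28.6%) and ends in GG. Of the 557 tested miRNAs with a RefSeq sequence, 24.6% have no larger share of G than miR-148a-3p and miR-148b-3p, and 52.2% no larger share than miR-152-3p.

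The hairpins are shown to place the arms, which stand in capitals where RefSeq lists them.
MIR148A: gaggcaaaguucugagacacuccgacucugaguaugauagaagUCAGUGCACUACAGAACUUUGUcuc
MIR148B: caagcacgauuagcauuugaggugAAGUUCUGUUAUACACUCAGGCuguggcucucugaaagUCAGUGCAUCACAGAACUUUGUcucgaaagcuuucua
MIR152: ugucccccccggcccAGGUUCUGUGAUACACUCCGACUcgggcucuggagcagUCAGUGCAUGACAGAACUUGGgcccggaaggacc

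MIR148A lies at chr7:25949919-25949986 (GRCh38, minus strand), in an intron of an unnamed lncRNA gene (ENSG00000270933). MIR148B lies at chr12:54337216-54337314 on the plus strand, in an intron of COPZ1 and of a lncRNA gene on the same strand (ENSG00000258344). MIR152 lies at chr17:48037161-48037247 on the minus strand, in an intron of COPZ2. COPZ1 and COPZ2 are paralogous genes for the zeta subunit of the COPI vesicle coat, so 2 of the 3 hairpins sit in introns of related host genes.

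The libraries held 9155690 to 10753443 counts for total RNA and 2649238 to 3106556 counts for m7G-RIP. The culture text of the m7G-RIP samples describes medium for Caco-2, an intestinal line, whereas titles and cell line labels give A549. Of 8 intestinal and epithelial miRNAs, 8 had counts in total RNA and 7 in m7G-RIP, where only miR-141-3p was at 0. Their summed share was 1.84% to 1.86% of total RNA counts and 0.383% to 0.401% of m7G-RIP counts. Most of it in both groups came from miR-192-5p, whose log2 ratio of m7G-RIP over total RNA was -2.87. The liver marker miR-122-5p was at 0 in all 6 libraries. Of 7 blood cell miRNAs, 6 were at 0 in every total RNA library and 6 in every m7G-RIP library, and none exceeded 5 counts. Muscle miRNAs (3 listed) took at most 0.000965% of total RNA counts but 0.0135% of m7G-RIP replicate 2. There miR-1-3p had 260 counts, against 66 and 2 in m7G-RIP replicates 1 and 3, and miR-133a-3p had 114. Neuronal miRNAs (3 listed) took 0.433% to 0.542% of total RNA and 0.617% to 0.860% of m7G-RIP counts, mostly from miR-128-3p. The part of any other RNA source in the family's values was not tested.

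The functional arms were recovered very unequally by the antibody. miR-148a-3p was strongly depleted in m7G-RIP, miR-148b-3p moderately, and miR-152-3p was recovered at close to its level in total RNA. Levels are given as counts per 1000000 after TMM scaling (CPM), which sets each library against the bulk of its other miRNAs, and ratios are m7G-RIP over total RNA. The ratios describe recovery by the antibody. As whole cultures were sampled, a level does not tell how many cells held a miRNA from how much each held.

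miR-148a-3p stood at 1261, 1288 and 1228 CPM in total RNA replicates 1, 2 and 3 and at 94.8, 128 and 100.4 CPM in m7G-RIP. Every m7G-RIP library was far below every total RNA library, and the m7G-RIP mean was 8.55% of the total RNA mean. Its log2 ratio was -3.55 (SE 0.15, edgeR quasi-likelihood adjusted p 2.16e-07). At its share in total RNA, the m7G-RIP libraries would have held 2753 to 3228 counts, and they held 322 to 407.

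miR-148b-3p stood at 706, 621 and 597 CPM in total RNA and at 377, 320 and 399.9 CPM in m7G-RIP. The groups did not overlap, but the m7G-RIP mean was 57.0% of the total RNA mean. Its log2 ratio was -0.81 (SE 0.14, edgeR quasi-likelihood adjusted p 0.000972). This call depended on scaling. With library size alone, which raised the median over all 620 tested by 0.55, its log2 ratio was -0.25 (adjusted p 0.155, edgeR).

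miR-152-3p stood at 206, 189.8 and 196 CPM in total RNA and at 161, 249 and 230.2 CPM in m7G-RIP. The groups overlapped, with m7G-RIP replicate 1 below and replicates 2 and 3 above all total RNA libraries. Its log2 ratio was 0.11 (SE 0.19, edgeR quasi-likelihood adjusted p 0.627). The direction was not stable, at -0.18 without m7G-RIP replicate 2 and -0.17 without m7G-RIP replicate 3, and with library size alone it was 0.66 and past the threshold as enriched (adjusted p 0.00803, edgeR).

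**Figure D1:**
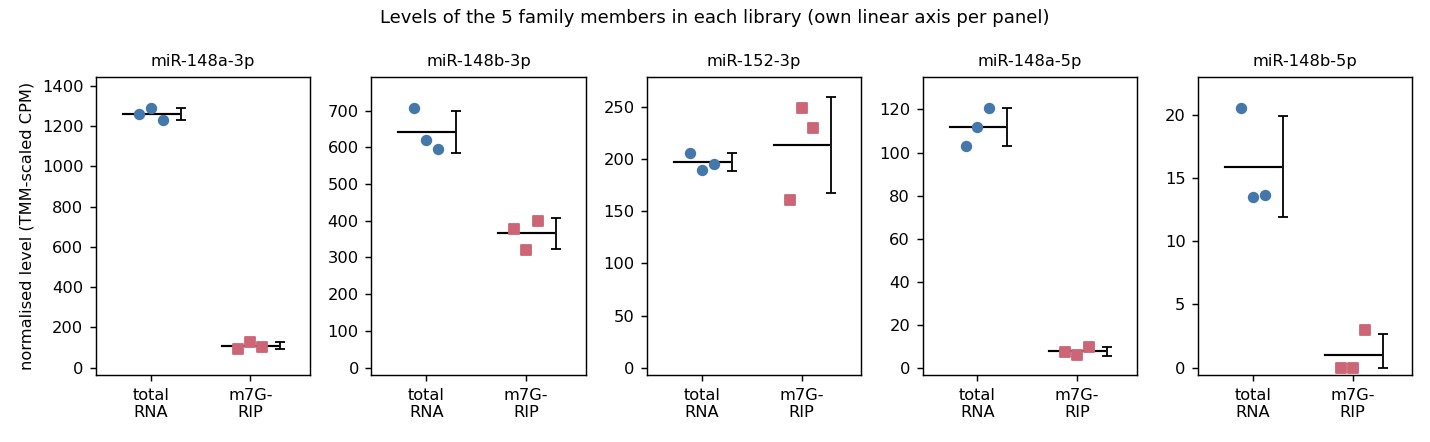
Level of each family member in each library, in TMM-scaled CPM on a linear axis of its own, for total RNA (circles) and m7G-RIP (squares). Horizontal lines are means and bars are SD (n = 3), with bars cut at 0. miR-152-3p is the only member whose groups overlap, and miR-148b-5p is at 0 in 2 m7G-RIP libraries.

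Of the 5 members, all of which passed the filter on low counts, 4 were depleted, against 29.2% of the 620 miRNAs tested. By the edgeR quasi-likelihood test 0 members were enriched, against 23.5% of those tested. Likewise 0 were above total RNA at an unadjusted p under 0.05, and DESeq2, the edgeR likelihood ratio test and limma-voom called 0 enriched. Over all tested miRNAs 146 were enriched and 181 depleted, and with library size alone 216 were enriched and 141 depleted. Every m7G-RIP library lay below every total RNA library for 4 members, against 36.5% of those tested. The 4 in both of these counts include miR-148b-5p, which passed the filter through its counts in total RNA, so a difference was built into its being tested. With a minimum of 10 counts in every library, which removes it, 3 of the 4 members tested were depleted, against 37.0% of 359 miRNAs. By log2 ratio, 49 of the tested miRNAs (7.90%) lay below miR-148a-3p, 37.1% below miR-148b-3p and 53.2% below miR-152-3p, where the median of all tested was -0.074. The 3 functional arms thus ran from the low tail to the middle of the distribution.

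**Figure D2:**
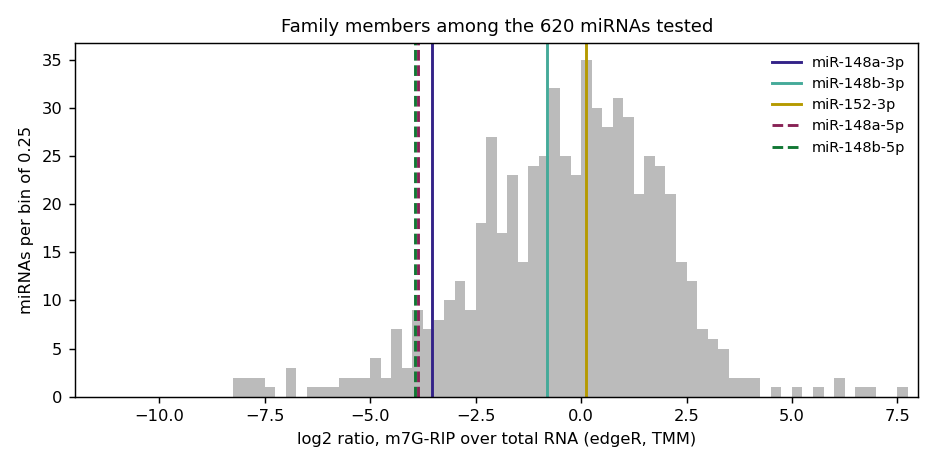
Histogram of the log2 ratio of m7G-RIP over total RNA (edgeR, TMM scaling) for the 620 miRNAs tested, with the family members as vertical lines, solid for 3p and dashed for 5p arms. The lines for miR-148a-3p, miR-148a-5p and miR-148b-5p sit between -3.94 and -3.55, miR-148b-3p at -0.81 and miR-152-3p at 0.11.

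The make-up of the family turned over between the groups. Among the counts of the 3 same-seed arms, miR-148a-3p was the largest part in total RNA and the smallest in m7G-RIP. These shares use no scaling between libraries. miR-148a-3p took 58.0%, 61.4% and 60.8% of the family's counts in total RNA and 15.0%, 18.3% and 13.7% in m7G-RIP, or 60.1% ± 1.78 against 15.7% ± 2.38 (SD, n = 3). miR-148b-3p took 30.5% ± 1.69 against 53.4% ± 6.92 (SD, n = 3). miR-152-3p took 9.41% ± 0.331 against 30.9% ± 5.17 (SD, n = 3). For each of the 3 shares, which are not independent of each other, the groups did not overlap (exact two-sided permutation p = 0.1). No smaller p can come from 3 libraries a group. The 95% Wilson interval of a share in a single library was at most 2.07 points to either side, which covers counting error of reads only.

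**Figure D3:**
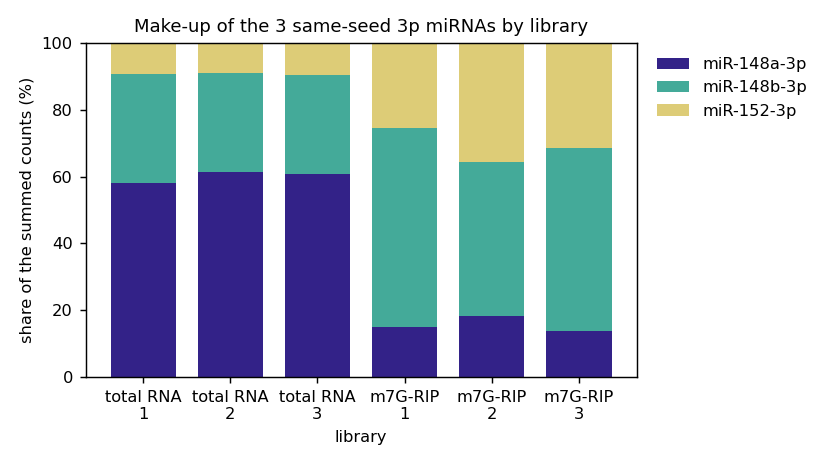
Share of miR-148a-3p, miR-148b-3p and miR-152-3p in their summed counts (%), stacked to 100 for each of the 6 libraries. miR-148a-3p fills 58.0% to 61.4% of the total RNA bars and 13.7% to 18.3% of the m7G-RIP bars.

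Summed over its 3 same-seed arms, the family took less of the m7G-RIP libraries, but the arms did not fall together. The summed counts of its same-seed arms were 15363 to 19265 in total RNA and 2148 to 2729 in m7G-RIP. As a share of all miRNA counts this was 0.173% ± 0.00573 against 0.0831% ± 0.00416 (SD, n = 3; exact permutation p = 0.1), and the groups did not overlap. The difference was -0.0899 points of all counts and -0.431 points with the 10 most abundant miRNAs left out of the total. With library size alone, miR-148a-3p was depleted, miR-148b-3p was at -0.25 in log2 (adjusted p 0.155, edgeR) and miR-152-3p was enriched at 0.66. The lower sum was thus not a fall of all 3 arms. The order of the levels also changed. In total RNA it ran from miR-148a-3p through miR-148b-3p and miR-152-3p to miR-148a-5p and miR-148b-5p, and in m7G-RIP from miR-148b-3p through miR-152-3p and miR-148a-3p to the same 5p arms. No neighbours in either order overlapped between libraries of a group. Levels of different miRNAs were not corrected for their sequence.

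Whether same-seed miRNAs were recovered alike was then tested on the ratio of their counts within each library. All 3 pairs of the family changed, and the pairs that hold miR-148a-3p changed most. miR-148a-3p had 1.79, 2.07 and 2.06 times the counts of miR-148b-3p in total RNA and 0.252, 0.400 and 0.251 times in m7G-RIP. The log2 count ratio thus changed by -2.74 (95% interval -3.17 to -2.31, limma adjusted p 8.23e-06). Against miR-152-3p the count ratio of miR-148a-3p was 6.11, 6.78 and 6.27 in total RNA and 0.589, 0.513 and 0.436 in m7G-RIP, a change of -3.65 in log2 (95% interval -3.96 to -3.34, limma adjusted p 5.79e-07). The count ratio of miR-148b-3p to miR-152-3p was 3.42, 3.27 and 3.05 in total RNA and 2.34, 1.28 and 1.74 in m7G-RIP, a change of -0.90 in log2 (95% interval -1.37 to -0.43, limma adjusted p 0.00606). In each of the 3 pairs the groups did not overlap (exact permutation p = 0.1, and 0.1 adjusted over the 3 pairs). Any 2 of these log2 ratios fix the third, so the pairs are not 3 independent results. The pairs and the family shares also use the same counts as the ratio of each miRNA, so they restate it without scaling and are not separate evidence.

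Unequal recovery of same-seed miRNAs was common in these libraries. Of 162 same-seed pairs among the tested miRNAs, from 49 seeds, 55.6% changed at an adjusted p under 0.05, so a change in itself does not set the family apart. The let-7 seed gave more of these pairs than any other seed, and pairs of a seed share miRNAs, so the pairs are not independent. The median absolute change was 0.93 in log2. The change was smaller in 93.8% of pairs than for miR-148a-3p against miR-152-3p, in 88.9% than for miR-148a-3p against miR-148b-3p and in 49.4% than for miR-148b-3p against miR-152-3p. Among the 53 same-seed pairs that differ at no more than 2 positions, a subset taken after the values were seen, the median absolute change was 0.55 and only 1 pair exceeded miR-148a-3p against miR-148b-3p. That pair, miR-181b-2-3p against miR-181b-3p, had a difference of 3.22 that did not pass the test (limma adjusted p 0.0571).

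**Figure D4:**
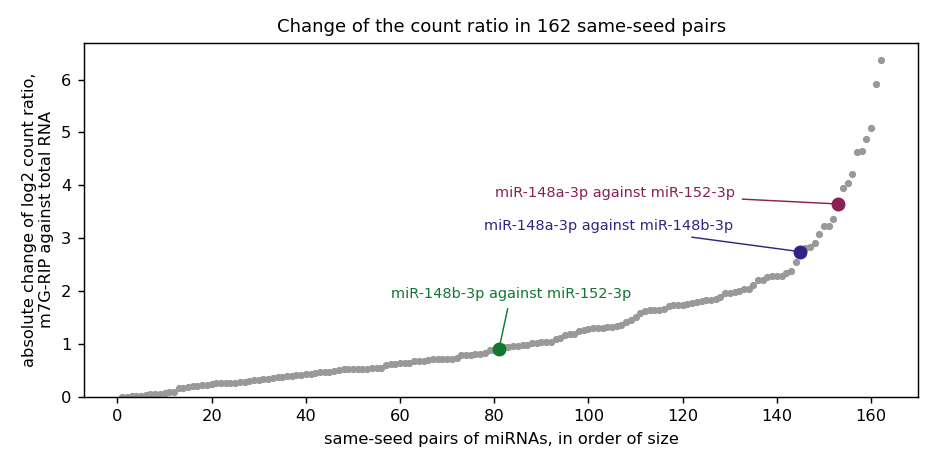
Absolute change of the log2 count ratio between m7G-RIP and total RNA for the 162 same-seed pairs of tested miRNAs, in order of size, with the 3 family pairs in colour. The pairs of miR-148a-3p with miR-152-3p and miR-148b-3p (changes of -3.65 and -2.74) lie in the steep upper end, and miR-148b-3p against miR-152-3p (-0.90) lies near the middle.

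The 5p arms, usually the passenger strands, stood below the 3p arm of the same hairpin in every library. Both members among them passed the test as depleted, although miR-148b-5p was tested through its counts in total RNA, which favoured that call. miR-148a-5p had 911, 941 and 917 counts in total RNA and 25, 18 and 36 in m7G-RIP. These are 111.7 ± 8.89 CPM against 7.55 ± 2.00 CPM (SD, n = 3), without overlap. Its log2 ratio was -3.88 (SE 0.27, edgeR quasi-likelihood adjusted p 3.00e-06). miR-148b-5p had 182, 114 and 104 counts in total RNA and 0, 0 and 11 in m7G-RIP. Its share of all total RNA counts, without TMM scaling, would have given 35.1 to 41.2 counts there. A count of 0 allows up to 3 counts, or 0.884 and 0.942 CPM in m7G-RIP replicates 1 and 2. Its log2 ratio was -3.94 (SE 1.13, edgeR quasi-likelihood adjusted p 0.0172), a value set by the 11 counts of m7G-RIP replicate 3. The call was lost without total RNA replicate 1 (adjusted p 0.0536, edgeR). The 5p arm of the third hairpin, miR-152-5p, is not a member by the rule, and had 87, 52 and 28 counts in total RNA and 1, 0 and 0 in m7G-RIP. That is at or under 3 counts in each m7G-RIP library, so no fold is given.

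The ratio of the arms within a library could be compared firmly for MIR148A alone, where both arms had counts in every library. miR-148a-3p had 12.3, 11.5 and 10.2 times the counts of miR-148a-5p in total RNA and 12.9, 22.6 and 10.4 times in m7G-RIP. The groups overlapped, and the log2 ratio of the arms changed by 0.33 (95% interval -0.53 to 1.19, limma adjusted p 0.481; exact permutation p = 0.4). A 2-fold rise lies inside that interval. miR-148b-3p had 34.4, 45.8 and 43.6 times the counts of miR-148b-5p in total RNA and 136 times in m7G-RIP replicate 3, where alone both arms had counts. With 0.5 added to each count, its log2 arm ratio was 4.43 higher in m7G-RIP, and with 2 added 3.05 higher. For MIR152 the same difference was 4.96 with 0.5 added, from 1, 0 and 0 counts of miR-152-5p in m7G-RIP. The 5p arms of MIR148B and MIR152 passed the filter through total RNA, which favoured a higher arm ratio in m7G-RIP, and the added count sets the ratio in 2 of 3 m7G-RIP libraries, so these differences are given as values without a test. Across 139 hairpins with both arms tested, the 3p to 5p ratio changed in either direction at an adjusted p under 0.05 (limma) in 42.4%. It was higher in m7G-RIP in 16.5%, and the median change was -0.40 in log2. The 139 include MIR148B and MIR152, with the limit of the filter given above.

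The miRNAs outside the family that lay nearest to each functional arm were listed by pattern over the 6 libraries. Likeness was the distance of log2 CPM centred on its mean, among the 359 miRNAs that reached 10 counts in each library. Family members that did so count among the 359 but were left out of the nearest listed. As the distance uses the same values, near neighbours have similar log2 ratios by construction. Nearest to miR-148a-3p were miR-181a-5p (distance 0.340, log2 ratio -3.57), miR-21-5p (0.390, log2 ratio -3.82) and miR-215-5p (0.613, log2 ratio -3.27). Nearest to miR-148b-3p were miR-935 (0.312, log2 ratio -0.97), miR-107 (0.331, log2 ratio -0.82) and miR-99b-3p (0.381, log2 ratio -0.89). Nearest to miR-152-3p were miR-200c-3p (0.266, log2 ratio 0.077), miR-3074-3p (0.293, log2 ratio 0.32) and miR-106b-3p (0.300, log2 ratio 0.17). miR-148b-3p and miR-152-3p lay 1.27 apart, with 93 miRNAs nearer to miR-148b-3p than its relative was. miR-148a-3p lay 3.41 from miR-148b-3p and 4.48 from miR-152-3p, with 114 and 173 miRNAs nearer to it.

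Against let-7e-5p, the miRNA in which the study placed an m7G, miR-148a-3p moved the other way. let-7e-5p stood at 4420, 4678 and 5548 CPM in total RNA and at 20074, 22007 and 27124 CPM in m7G-RIP. The log2 count ratio of miR-148a-3p to let-7e-5p was -1.95 ± 0.199 in total RNA and -7.74 ± 0.325 in m7G-RIP (SD, n = 3), a change of -5.79 without overlap (exact permutation p = 0.1).

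Other miRNAs known to target DNA methyltransferases were compared with the family. Of 8 listed (miR-29a-3p, miR-29b-3p, miR-29c-3p, miR-101-3p, miR-140-5p, miR-143-3p, miR-185-5p and miR-342-3p), 7 were tested, 5 were depleted (29.2% of all 620 tested) and 0 were enriched by edgeR (23.5% of all tested), with a median log2 ratio of -2.21 against -0.074 over all tested. Of the list, 0 were above total RNA at an unadjusted p under 0.05. The lowest was miR-101-3p, known to target DNMT3A and EZH2, whose mean went from 1253 ± 68.0 CPM to 62.4 ± 7.94 CPM (SD, n = 3). The highest was miR-143-3p, whose m7G-RIP level of 14.6 ± 15.2 CPM (SD, n = 3) rested on 102 counts in replicate 2. miR-152-3p at 0.11 and miR-148b-3p at -0.81 lay above the median of this list and miR-148a-3p at -3.55 lay below it.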

How the data were processed

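The values deposited by the authors are raw counts per mature miRNA, in one table for the 3 total RNA libraries and another for the 3 m7G-RIP libraries. Per the authors' methods, trimming used Trimmomatic, end-to-end alignment to GRCh38 used STAR, and featureCounts assigned the reads to miRBase mature miRNAs. The submitters' processing notes name Bowtie2 instead of STAR, and versions and the counting of reads with several alignments are not given in the sources used here.

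Members and lists were chosen with earlier results of these data known. Groups and replicate numbers come from the titles. The test of each miRNA was run in edgeR 4.0.16 under R 4.3.3 (TMM, default expression filter by group, robust quasi-likelihood F test, Benjamini-Hochberg over 620 miRNAs, threshold 0.05). Where the study used DESeq2, its Wald test (DESeq2 1.42.0) was run as an alternative. Log2 ratios of 2 counts within a library (0.5 added) were tested with limma 3.58.1 over all same-seed pairs and over all hairpins with both arms tested, with a variance trend on the count of the scarcer miRNA. Exact permutation tests were two-sided. Of tested miRNAs, 89.8% had a RefSeq mature sequence. Host genes are from GENCODE release 44. No libraries were merged, since within both groups the replicates varied beyond sampling (chi-square per degree of freedom 22.2 to 112). Named miRNAs were the members, miR-152-5p, let-7e-5p, the 3 nearest patterns of each 3p arm, and the extremes of the DNA methyltransferase list. Marker miRNAs and the miR-181b pair were named after their values were seen. Code was checked on simulated counts.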

Additional observations from a re-analysis of the deposited data

How the results depend on the processing

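Scaling, filter, tool and replicate block were varied and each library was left out in turn, and 182 of 194 values kept their direction and side of the threshold or, for counts of members, stayed within 1.5 times, though an exact test on 3 against 3 libraries cannot pass 0.05. The number of depleted members fell from 4 to 3 with library size alone, with a minimum of 10 counts and without total RNA replicate 1. miR-148a-3p and miR-148a-5p were depleted in each alternative. With library size alone, miR-148b-3p was at -0.25 and no longer past the threshold, miR-152-3p was at 0.66 and enriched, and so 1 member was enriched, while over all miRNAs 216 were enriched and 141 depleted against 146 and 181 with TMM. miR-152-3p was at -0.18 with no filter, where the median of all tested miRNAs was 0.72 lower than with the default filter, and between -0.18 and 0.11 when single libraries were left out. In the latter fits miR-148b-5p lay from -9.70 to -3.53, the former without m7G-RIP replicate 3, and the arm difference of MIR148B from 3.66 to 5.81. A minimum of 10 counts per library removes miR-148b-5p, and its arm difference has no value there or with a pseudocount of 0. No test of this arm difference is given, since the filter and the added count favoured its direction. Its fits are still among the 194 values. Otherwise the cause of these shifts was not tested. All 3 same-seed differences stayed past the threshold in every alternative.

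Libraries with the same replicate number were not treated as pairs. The paper's protocol keeps part of the RNA as input before the pull-down, and whether these libraries are linked in that way was not tested. Deviations of same-number libraries from group means correlated at -0.0433, -0.101 and 0.0641 (numbers 1, 2 and 3) over all 620 miRNAs. Over the 306 best-counted miRNAs the correlations were 0.0734, 0.0784 and 0.0984. Only 2 of 6 libraries correlated best with their own number over all 620. However, miR-133a-3p had counts only in replicate 2 of both groups (20 and 114) and miR-124-3p only in replicate 3 of both (18 and 2). With the replicate block the log2 ratios were -3.56 for miR-148a-3p, -0.81 for miR-148b-3p and 0.091 for miR-152-3p, 4 members were depleted, and over all miRNAs 122 were enriched and 175 depleted. It changed no call of the family.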
